A study of Homo sapiens with 9 samples.

Results

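The genes encoded by the mitochondrial genome were followed in MCF10A cells, a non-tumorigenic human mammary epithelial cell line. They were taken as every gene symbol that starts with MT- in the deposited expression table, which gave 37 of 56609 gene symbols: 2 ribosomal RNAs, 13 messenger RNAs and 22 transfer RNAs. High calcium samples had been kept for 16 h in 10 mM calcium together with ionomycin, an ionophore that carries calcium across membranes, at a concentration the labels give as 1 mM. TGFb3 samples had received transforming growth factor beta 3 at 10 nM for 16 h, and control samples were untreated. Each group had 3 samples, and all 9 shared a growth medium with horse serum, EGF, hydrocortisone, cholera toxin and insulin. Calcium and ionomycin were always given together, so their effects cannot be told apart, and the labels name no vehicle for the control. Nothing in the labels says whether the 3 samples of a group were separate cultures, so the p-values cover only the spread among these 9, which could be technical.

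The human mitochondrial genome is a small circle, and each of its strands is transcribed into a long RNA by the polymerase POLRMT with the factors TFAM and TFB2M. The heavy-strand transcript carries both rRNAs, most mRNAs and most tRNAs, whereas the light-strand transcript carries MT-ND6 and the remaining tRNAs. The tRNAs lie between the rRNAs and mRNAs like punctuation, and their excision releases the RNAs on either side. The mRNAs encode core subunits of NADH dehydrogenase (complex I), cytochrome b (complex III), cytochrome c oxidase (complex IV) and ATP synthase (complex V). The rRNAs and tRNAs serve the mitochondrial ribosome that translates them. Here 28 of the 37 genes were heavy-strand genes, on the plus strand of the GRCh38 annotation, and 9 were light-strand genes, namely MT-ND6 and 8 tRNAs.

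Values are TPM, read abundance per transcript length scaled so that every sample sums to 1000000, so sequencing depth is unknown and a level is always a share of the other RNAs. The 8 mammary epithelial markers examined were above 0 in all 9 samples, but their levels differed between groups: limma called 8 higher in high calcium against control, and 5 higher and 2 lower in TGFb3 against control. Among all genes tested 46.1% were called higher in high calcium, and 26.5% higher and 33.1% lower in TGFb3. KRT5, a basal keratin, averaged 1801 ± 17.7 TPM in high calcium samples, 1168 ± 100.3 TPM in TGFb3 samples and 1252 ± 40.9 TPM in control samples (SD, n = 3 each). In TGFb3 against control the log2 difference was 2.20 for ITGB4, an epithelial integrin, and −1.31 for EPCAM, an adhesion molecule. The part of these differences in the results was not tested. Of 10 markers of other cell types, PTPRC, CD3E and CDH5 (leukocyte, T cell and endothelial genes) were at 0 in every sample. Only CD68 and ACTA2 of these 10 exceeded a mean of 1 TPM, and the 10 summed to 28.2 to 52.7 TPM in high calcium samples, 17.9 to 22.6 TPM in TGFb3 samples and 9.80 to 11.8 TPM in control samples. CD68, a lysosomal glycoprotein also used as a macrophage marker, averaged 24.8 ± 11.8 TPM in high calcium samples, 11.0 ± 2.56 TPM in TGFb3 samples and 2.04 ± 0.858 TPM in control samples (SD, n = 3 each), and its part in the results was not tested.

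Mitochondrial RNA took a much smaller share of the transcriptome in high calcium samples, and its make-up was different. The 37 genes held 11.4, 11.1 and 11.9% of all TPM in high calcium samples, 22.2, 23.3 and 22.7% in TGFb3 samples and 23.2, 21.7 and 23.3% in control samples. Every high calcium sample was below every other sample, while TGFb3 and control samples overlapped. The means were 11.5 ± 0.371%, 22.7 ± 0.588% and 22.7 ± 0.914% in high calcium, TGFb3 and control samples (SD, n = 3 each). High calcium was lower than control by a factor of 1.98 (exact permutation test, two-sided, p = 0.1, the smallest that 3 samples against 3 allow). TGFb3 differed from control by 0.0141 percentage points (exact permutation test, p = 0.9). In bulk samples fewer mitochondria or genome copies per cell, fewer cells of a kind and less RNA per copy cannot be told apart.

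The lower total joined a lower mRNA share with a higher rRNA share. The mRNAs took 4.98, 4.80 and 5.05% of all TPM in high calcium samples, 20.5, 21.6 and 20.9% in TGFb3 samples and 22.0, 20.5 and 22.3% in control samples, so high calcium was 4.37-fold lower than control. The rRNAs took 6.14, 6.09 and 6.55% in high calcium samples, 1.16, 1.18 and 1.18% in TGFb3 samples and 0.757, 0.745 and 0.648% in control samples, or 8.73 times the control level in high calcium and 1.64 times in TGFb3. The tRNAs averaged 0.254 ± 0.0112%, 0.556 ± 0.0377% and 0.372 ± 0.00435% in high calcium, TGFb3 and control samples (SD, n = 3 each). No pair of groups overlapped for the rRNA or tRNA share, and for the mRNA share only TGFb3 and control did. Of mitochondrial RNA alone, rRNAs were 54.6 ± 0.623% in high calcium samples, 5.16 ± 0.105% in TGFb3 samples and 3.16 ± 0.341% in control samples. Set against nuclear RNA only, the mRNAs of high calcium samples were 5.01-fold lower than control and the rRNAs 7.63-fold higher.

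**Figure D1:**
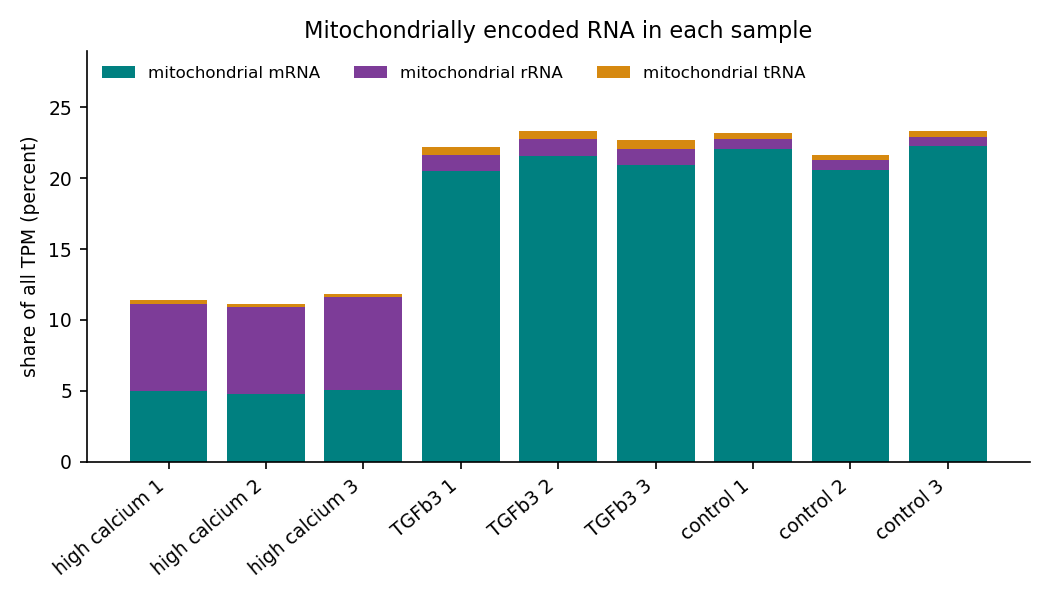
Share of all TPM, in percent, taken by mitochondrial mRNAs, rRNAs and tRNAs, stacked in 1 bar for each of the 3 high calcium, 3 TGFb3 and 3 control samples. The mRNA share averaged 4.94 ± 0.128% in high calcium samples against 21.6 ± 0.939% in control samples, while the rRNA share averaged 6.26 ± 0.252% in high calcium samples against 0.716 ± 0.0597% in control samples (SD, n = 3 each).

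The log2 ratio of summed rRNA to summed mRNA TPM, which does not depend on nuclear RNA, was 0.30, 0.34 and 0.37 in high calcium samples, −4.14, −4.20 and −4.15 in TGFb3 samples and −4.86, −4.79 and −5.10 in control samples. The 3 groups did not overlap. The difference from control was 5.26 in high calcium and 0.76 in TGFb3, and high calcium exceeded TGFb3 by 4.50 (exact permutation tests, p = 0.1 each, the smallest possible). MALAT1 and NEAT1, long RNAs retained in the nucleus, moved in the same samples. MALAT1 averaged 424 ± 32.2 TPM in high calcium samples, 204 ± 12.4 TPM in TGFb3 samples and 158 ± 44.7 TPM in control samples, and NEAT1 averaged 82.0 ± 7.29 TPM in high calcium samples, 28.6 ± 2.02 TPM in TGFb3 samples and 33.1 ± 6.32 TPM in control samples (SD, n = 3 each). Their part in the result was not tested. The labels give total RNA as the material, and how it was selected for sequencing is not given in the sources used here.

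For single genes, log2(TPM + 1) was compared with limma over the 13968 gene symbols that averaged 1 TPM or more, and a gene was called at an adjusted p under 0.05. All 37 mitochondrial genes passed that filter. In high calcium against control, 34 of the 37 were called lower, where 17% of all tested genes were, and 3 were called higher, where 46.1% were. The 3 higher genes were MT-RNR1, MT-RNR2 and MT-TV, which lie next to each other. High calcium and control samples did not overlap for any of the 37, against 69% of all tested genes without overlap. These counts include 22 tRNAs, which are shorter than the reads. MT-TA, MT-TN and MT-TS2 were listed at 0 in every high calcium sample, and an exact 0 can be a failed estimate. Without the tRNAs, all 13 mRNAs were called lower and both rRNAs higher. After median ratio rescaling the 34 lower and 3 higher genes stood, while 30.0% of all tested genes were lower and 30.2% higher. The median log2 difference was −2.07 over the mRNAs and −2.13 over the tRNAs, against 0.22 over all tested genes. In TGFb3 against control, 18 of the 37 were called higher, where 26.5% of all tested genes were, 2 were called lower, where 33.1% were, and 17 were not called. Of these 37 genes 22 had no overlap between TGFb3 and control samples, against 63.8% of all tested genes. The median log2 difference over all tested genes was −0.06.

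**Figure D2:**
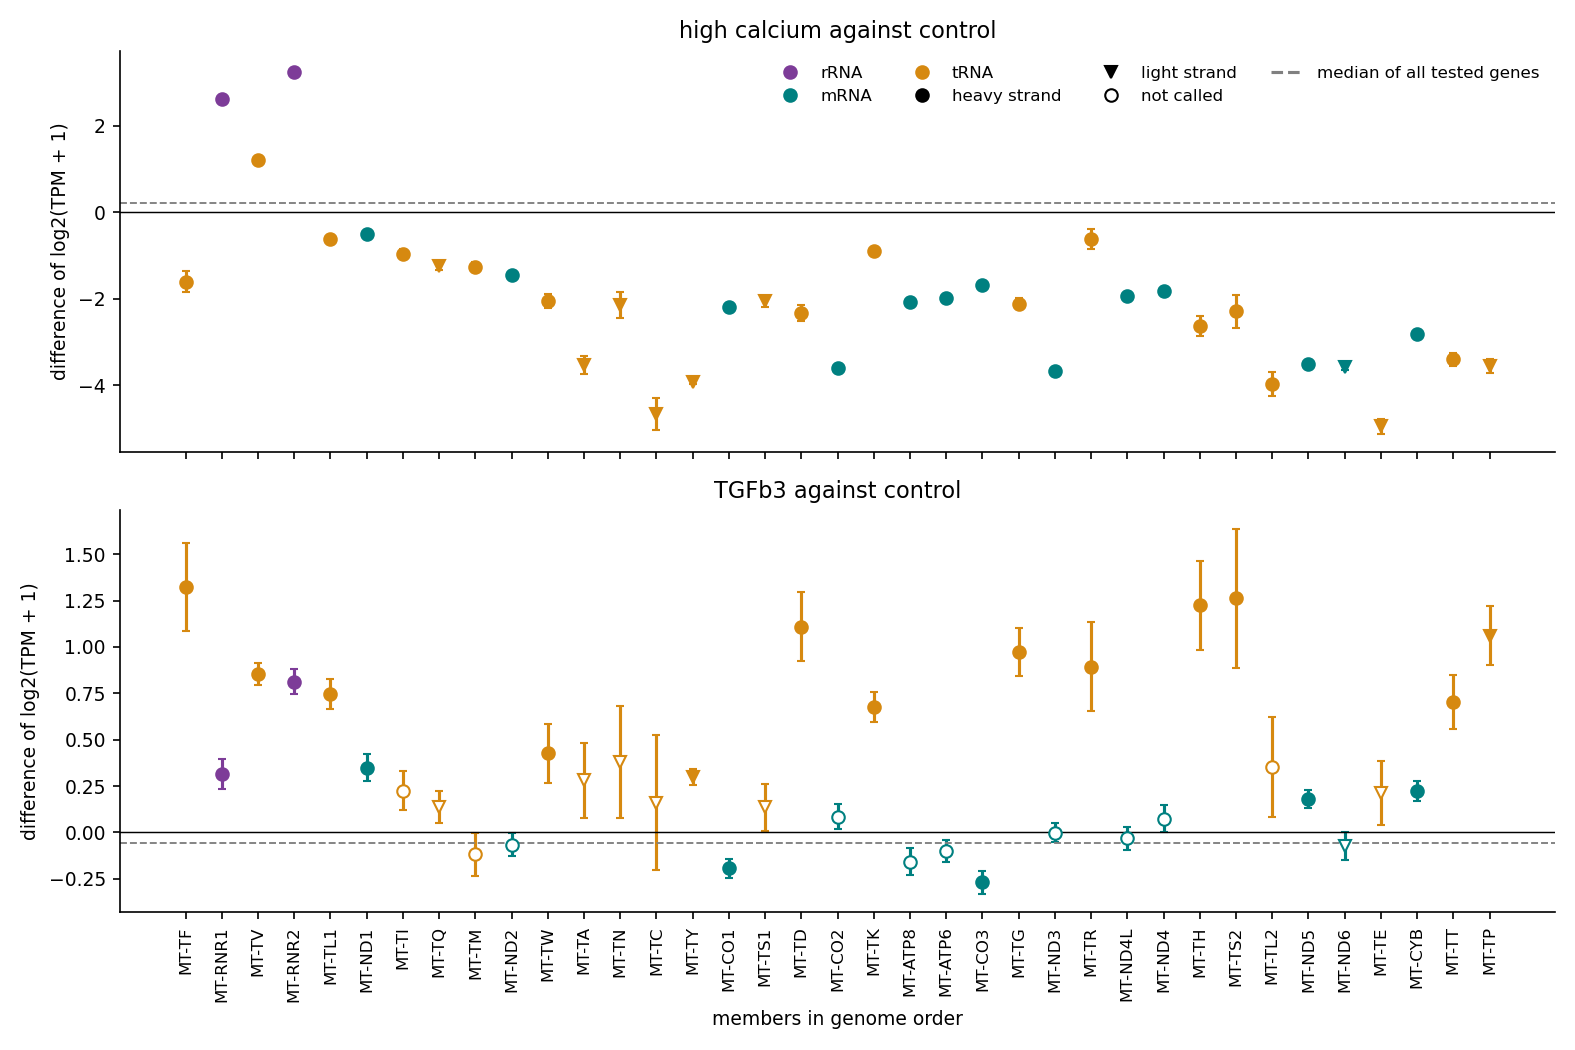
Log2 difference (log2 of TPM + 1) of each of the 37 mitochondrial genes in genome order, for high calcium against control and for TGFb3 against control, with standard errors; triangles are light-strand genes, open symbols were not called and the dashed line is the median of all tested genes. In high calcium the 3 genes above 0 are MT-RNR1, MT-TV and MT-RNR2, and the other 34 lie below it.

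Both rRNAs rose under both treatments, much more in high calcium. MT-RNR1, the small-subunit rRNA at chrM:648-1601 on the plus strand of GRCh38, had 9955, 9788 and 10381 TPM in high calcium samples, 2180.1, 1920.1 and 1969 TPM in TGFb3 samples and 1714, 1757 and 1418 TPM in control samples. Its log2 difference from control was 2.63 ± 0.0820 (SE) in high calcium, 6.16-fold in TPM (limma adjusted p = 4.7e-09), and 0.32 ± 0.0820 in TGFb3 (limma adjusted p = 0.0073). The high calcium samples stood far above the other 6, which did not overlap with each other by group. MT-RNR2, the large-subunit rRNA at chrM:1671-3229, had 51396, 51116 and 55089.8 TPM in high calcium samples, 9463, 9858 and 9786 TPM in TGFb3 samples and 5851, 5692 and 5059.9 TPM in control samples. Its log2 difference was 3.25 ± 0.0680 in high calcium, 9.49-fold in TPM (limma adjusted p = 4.1e-10), and 0.81 ± 0.0680 in TGFb3 (limma adjusted p = 3.6e-06). The 3 groups were fully separated. Quantile normalisation gives every sample the same set of values, so here and below a difference after it follows ranks within samples alone. After it the high calcium difference of MT-RNR1 was 3.38. MT-RNR2 alone took 5.25 ± 0.222% of all TPM in high calcium samples, 0.970 ± 0.0211% in TGFb3 samples and 0.553 ± 0.0419% in control samples. The ratio of the rRNAs differed as well: log2 of MT-RNR2 over MT-RNR1 was 2.37, 2.38 and 2.41 in high calcium samples, 2.12, 2.36 and 2.31 in TGFb3 samples and 1.77, 1.70 and 1.84 in control samples, and the 3 groups did not overlap (exact permutation test against control, p = 0.1 for high calcium and 0.1 for TGFb3).

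MT-TV, the valine tRNA, fills the gap between the rRNAs at chrM:1602-1670 and can be incorporated into the mitochondrial ribosome. MT-TL1, a leucine tRNA, follows MT-RNR2 directly at chrM:3230-3304, and MT-ND1 comes next. Their gene sequences are shown because the direction of the high calcium difference changed between them; they were read from GENCODE release 29 transcripts (GRCh38), plus strand, with the anticodon in capitals.
MT-TV: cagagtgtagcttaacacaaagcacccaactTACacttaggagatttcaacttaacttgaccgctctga
MT-TL1: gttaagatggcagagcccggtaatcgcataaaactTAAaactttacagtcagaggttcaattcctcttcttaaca
MT-TV had 1642, 1566 and 1743 TPM in high calcium samples, 1264, 1262 and 1302 TPM in TGFb3 samples and 739, 738 and 645 TPM in control samples, so all high calcium samples were above all control samples. Its log2 difference was 1.22 ± 0.0599 in high calcium (limma adjusted p = 8.7e-08) and 0.85 ± 0.0599 in TGFb3 (limma adjusted p = 1.1e-06). MT-TL1 had 502, 478 and 540.0 TPM in high calcium samples, 1184, 1443 and 1306 TPM in TGFb3 samples and 742, 742 and 854 TPM in control samples, and no group overlapped with another. Its log2 difference was −0.62 ± 0.0813 in high calcium (limma adjusted p = 9.3e-05) and 0.75 ± 0.0813 in TGFb3 (limma adjusted p = 2.5e-05). MT-TF, the phenylalanine tRNA in front of MT-RNR1, averaged 8.02 ± 0.928 TPM in high calcium samples, 68.2 ± 13.1 TPM in TGFb3 samples and 27.6 ± 10.0 TPM in control samples (SD, n = 3 each). It was thus lower in high calcium although its downstream neighbour was higher, with log2 differences of −1.61 ± 0.239 in high calcium (limma adjusted p = 0.00022) and 1.32 ± 0.239 in TGFb3 (limma adjusted p = 0.00083).

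All 13 mRNAs fell in high calcium, by very unequal amounts. The smallest log2 difference was −0.50 for MT-ND1 and the largest −3.66 for MT-ND3. No mRNA of a high calcium sample reached its level in any control sample. In this comparison 17% of all tested genes were called lower, and 69% had no overlap in either direction. The ratio of the highest to the lowest mean mRNA level was 54.3 in high calcium samples, 17.9 in TGFb3 samples and 19.0 in control samples. TGFb3 moved 5 of the 13 past the test: MT-ND1, MT-ND5 and MT-CYB rose, and MT-CO1 and MT-CO3 fell. Among all tested genes 26.5% were called higher and 33.1% lower in TGFb3. After quantile normalisation the log2 differences of these 5 were 0.18, −0.09, 0.04, −0.16 and −0.06 in that order. Limma then called none of them, while MT-ND2 and MT-ND3 were called lower at −0.28 and −0.39. These quantile values follow ranks and do not measure the size of a change. After median ratio rescaling 4 of the 5 calls held, all but MT-CO1, and on the total of nuclear genes all 5 did. All 13 mRNAs stayed called lower in high calcium under every scaling tried, MT-ND1 with log2 differences between −0.74 and −0.29.

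**Figure D3:**
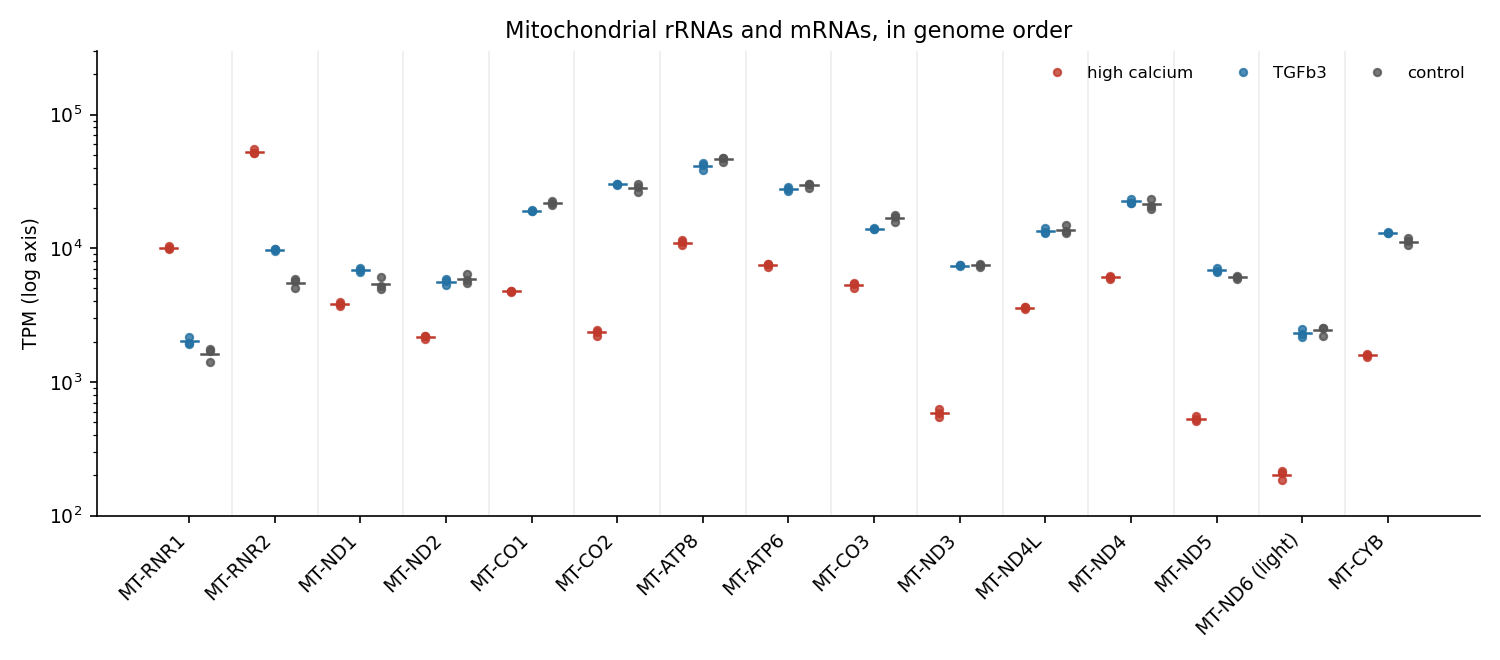
TPM of the 2 rRNAs and 13 mRNAs on a log axis, in genome order, with a point for each sample of high calcium, TGFb3 and control and a line at each mean. High calcium points lie above the others for MT-RNR1 and MT-RNR2 and below them for every mRNA, with the narrowest gap at MT-ND1.

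Of the 7 mRNAs for subunits of complex I, the NADH dehydrogenase that feeds electrons into the chain, all fell in high calcium, with a median log2 difference of −1.93. MT-ND1, at chrM:3307-4262, had 3833, 3697 and 3940.0 TPM in high calcium samples, 6679.5, 7069 and 6843 TPM in TGFb3 samples and 5215, 4935 and 6086 TPM in control samples. It was 1.42-fold lower in high calcium, with a log2 difference of −0.50 ± 0.0734 (limma adjusted p = 0.00021), and higher in TGFb3 by 0.35 ± 0.0734 (limma adjusted p = 0.0022). The groups did not overlap. MT-ND2, at chrM:4470-5511, had 2185, 2093 and 2195 TPM in high calcium samples, 5349, 5864 and 5668 TPM in TGFb3 samples and 5825, 5494 and 6379 TPM in control samples. High calcium samples lay below all others, 2.73-fold under control with a log2 difference of −1.45 ± 0.0617 (limma adjusted p = 3.4e-08). TGFb3 differed by −0.07 ± 0.0617, which was not called.

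MT-ND3, MT-ND5 and MT-ND6 lost most within complex I. MT-ND3, at chrM:10059-10404, had 625, 550.1 and 583 TPM in high calcium samples, 7408, 7422 and 7433 TPM in TGFb3 samples and 7589, 7219 and 7475 TPM in control samples. Its high calcium samples were 12.7-fold under control, with a log2 difference of −3.66 ± 0.0511 (limma adjusted p = 5.0e-11), and TGFb3 and control samples overlapped. MT-ND5, at chrM:12337-14148, had 554, 509 and 531 TPM in high calcium samples, 6746, 7123 and 6654 TPM in TGFb3 samples and 6050.4, 5889 and 6178 TPM in control samples. It was 11.4-fold lower in high calcium, at −3.51 ± 0.0473 on the log2 scale (limma adjusted p = 4.7e-11), and in TGFb3 it differed by 0.18 ± 0.0473 (limma adjusted p = 0.008). The 3 groups were separate, but the small TGFb3 difference turned to −0.09 after quantile normalisation. MT-ND6, the only light-strand mRNA, at chrM:14149-14673 on the minus strand, had 216, 185 and 207 TPM in high calcium samples, 2263, 2490.0 and 2172 TPM in TGFb3 samples and 2527, 2545 and 2212 TPM in control samples. It was lower in high calcium, at −3.58 ± 0.0766 (limma adjusted p = 4.4e-10), while TGFb3 and control samples overlapped.

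MT-ND4L and MT-ND4 share a messenger, and their reading frames overlap by 7 bases. Both ends are shown because counts of the pair cannot be separated there; sequences are from GENCODE release 29 (GRCh38, plus strand), first the end of MT-ND4L and then the start of MT-ND4, with the shared bases in capitals.
MT-ND4L: cataacctaaacctactccaATGCTAA
MT-ND4: ATGCTAAaactaatcgtcccaacaatt
MT-ND4L, at chrM:10470-10766, had 3656, 3500.4 and 3605 TPM in high calcium samples, 13126, 14044 and 13091 TPM in TGFb3 samples and 13353, 12989.7 and 14836 TPM in control samples. MT-ND4, at chrM:10760-12137, had 6121, 5892 and 6150.5 TPM in high calcium samples, 21692, 23439 and 21954 TPM in TGFb3 samples and 20706, 19654 and 23525 TPM in control samples. For both, high calcium samples were below all others and TGFb3 overlapped control. The log2 difference in high calcium was −1.93 ± 0.0620 for MT-ND4L and −1.81 ± 0.0734 for MT-ND4 (limma adjusted p = 5.4e-09 and 2.5e-08). After quantile normalisation it was −1.47 for MT-ND4L and −0.75 for MT-ND4.

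Complex III has a single mitochondrially encoded subunit, cytochrome b. Its mRNA MT-CYB, at chrM:14747-15887, had 1596, 1537 and 1603 TPM in high calcium samples, 13183, 13044 and 12994 TPM in TGFb3 samples and 11272, 10478 and 11852 TPM in control samples. High calcium samples were lowest and TGFb3 samples highest, with no overlap. The log2 difference from control was −2.82 ± 0.0536 in high calcium (limma adjusted p = 3.5e-10), 7.09-fold lower, and 0.22 ± 0.0536 in TGFb3 (limma adjusted p = 0.0046).

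The 3 mRNAs for the catalytic core of complex IV, cytochrome c oxidase, fell to different degrees in high calcium. MT-CO1, at chrM:5904-7445, had 4797, 4687 and 4760.2 TPM in high calcium samples, 18873, 19344 and 18912 TPM in TGFb3 samples and 22361, 21922 and 21068 TPM in control samples. It was 4.59-fold lower in high calcium, at −2.20 ± 0.0503 on the log2 scale (limma adjusted p = 5.6e-10), and lower in TGFb3 at −0.19 ± 0.0503 (limma adjusted p = 0.0074). MT-CO2, at chrM:7586-8269, had 2449, 2222 and 2368 TPM in high calcium samples, 30224, 30077 and 29584 TPM in TGFb3 samples and 30021, 26172 and 28701 TPM in control samples. Its fall was 12.1-fold, at −3.59 ± 0.0656 (limma adjusted p = 3.3e-10), and TGFb3 was not called at 0.08 ± 0.0656. MT-CO3, at chrM:9207-9990, had 5059, 5386 and 5478 TPM in high calcium samples, 14169, 13895 and 13946 TPM in TGFb3 samples and 17772, 15801 and 17141 TPM in control samples. It was 3.18-fold lower in high calcium, at −1.67 ± 0.0600 (limma adjusted p = 1.1e-08), and lower in TGFb3 at −0.27 ± 0.0600 (limma adjusted p = 0.0031). After quantile normalisation the high calcium difference was −1.48 for MT-CO1 and −0.82 for MT-CO3. MT-CO2 had the highest mean TPM of the 3 in TGFb3 and control samples and the lowest in high calcium samples.

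MT-ATP8 and MT-ATP6 encode membrane subunits of complex V, the ATP synthase, from a shared messenger whose reading frames overlap by 46 bases. The end of MT-ATP8 and the start of MT-ATP6 (GENCODE release 29, GRCh38, plus strand) are shown with those bases in capitals, since reads lying there belong to both genes.
MT-ATP8: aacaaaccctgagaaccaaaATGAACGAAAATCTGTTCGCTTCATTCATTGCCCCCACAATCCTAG
MT-ATP6: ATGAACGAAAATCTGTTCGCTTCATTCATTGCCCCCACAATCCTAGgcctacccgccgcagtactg
MT-ATP8, at chrM:8366-8572, had 11108, 10496 and 11429 TPM in high calcium samples, 38627, 43535 and 42011 TPM in TGFb3 samples and 47331, 43944 and 47179 TPM in control samples. MT-ATP6, at chrM:8527-9207, had 7602, 7259 and 7639 TPM in high calcium samples, 26596, 28545 and 27887 TPM in TGFb3 samples and 30422, 28443 and 30170.0 TPM in control samples. Both fell in high calcium, 4.19-fold and 3.96-fold, with log2 differences of −2.07 ± 0.0722 and −1.98 ± 0.0596 (limma adjusted p = 8.9e-09 and 3.7e-09). In TGFb3 neither was called, at −0.16 and −0.10, although MT-ATP8 samples did not overlap with control. After quantile normalisation the high calcium differences were −1.12 for MT-ATP8 and −0.75 for MT-ATP6. These values follow ranks and do not measure how large or how alike the falls were. MT-ATP8 had the highest mean TPM of all mRNAs in each of the 3 groups. It is only 207 bases long, so its TPM also rests on how short genes and shared reads were counted. The sources used here do not give this, so its TPM is no measure of messenger copies against MT-ATP6.

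Summed by complex, the make-up of the mRNA pool shifted as well. Complex I mRNAs were 34.3 ± 0.220% of mitochondrial mRNA TPM in high calcium samples, 30.9 ± 0.366% in TGFb3 samples and 28.8 ± 1.08% in control samples (SD, n = 3 each). Complex III, MT-CYB alone, was 3.19 ± 0.0164%, 6.23 ± 0.196% and 5.18 ± 0.123% in high calcium, TGFb3 and control samples. Complex IV was 25.1 ± 0.463% in high calcium samples, 30.0 ± 0.784% in TGFb3 samples and 31.0 ± 0.901% in control samples. High calcium did not overlap with the other groups in any of the 4, and TGFb3 overlapped control only for complex IV. Complex V was 37.4 ± 0.409% in high calcium samples, 32.9 ± 0.911% in TGFb3 samples and 35.1 ± 0.308% in control samples. MT-ATP8 and MT-ATP6 both count in complex V, and MT-ND4L and MT-ND4 in complex I, although each pair shares a messenger.

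Several mRNAs end without a complete stop codon in the genome, which the poly(A) tail then completes. The last bases of MT-ND1, MT-ND3, MT-CO2 and MT-ND6 (GENCODE release 29, GRCh38, coding sense) are shown because these 4 include the mildest and the strongest falls, with the encoded part of the stop in capitals.
MT-ND1: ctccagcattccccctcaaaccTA
MT-ND3: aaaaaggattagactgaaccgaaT
MT-CO2: atagggcccgtatttaccctaTAG
MT-ND6: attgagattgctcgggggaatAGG
MT-ND1 and MT-ND3 end with an incomplete codon, yet stood at opposite ends of the range in high calcium. Over the 6 mRNAs whose length is not a multiple of 3 the median log2 difference was −1.74, and over the 7 others it was −2.20. Across the mRNAs the high calcium difference had a Spearman rho of 0.15 with length, 0.32 with GC percent and −0.06 with control level (n = 13 genes of the same libraries, a description only).

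Neighbouring genes that leave the same precursor were compared within each sample. The log2 ratio of the downstream to the upstream gene was followed for 13 adjacent pairs of heavy-strand rRNAs and mRNAs. High calcium and control samples did not overlap in 13 of 13 pairs, of which 7 ratios were higher and 6 lower in high calcium. TGFb3 and control samples did not overlap in 10 of 13, with 6 higher and 4 lower. The share of other gene pairs without overlap was not computed, and among single tested genes it was 69% and 63.8%. Exact permutation tests over the 13 pairs and 3 comparisons (39 tests) gave p = 0.1 at the lowest, or 0.115 after Benjamini-Hochberg adjustment, so none passed and none could with 3 samples a group.

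The sharpest step lay between MT-RNR2 and MT-ND1, which are separated by MT-TL1. The log2 ratio of MT-ND1 to MT-RNR2 was −3.75, −3.79 and −3.81 in high calcium samples, −0.50, −0.48 and −0.52 in TGFb3 samples and −0.17, −0.21 and 0.27 in control samples. All high calcium samples were far below the rest, and the ratio was 13.4-fold lower than in control, a difference of −3.74. The next largest steps down in high calcium against control were MT-CO2 over MT-CO1 (−1.39), MT-ND3 over MT-CO3 (−1.99) and MT-ND5 over MT-ND4 (−1.70). Smaller ones lay at MT-ND2 over MT-ND1 (−0.95) and MT-CO1 over MT-ND2 (−0.75). The largest steps up lay at MT-ATP8 over MT-CO2 (1.52) and MT-ND4L over MT-ND3 (1.73). Smaller steps up included MT-CYB over MT-ND5 (0.68) and MT-RNR2 over MT-RNR1 (0.62). The high calcium difference thus did not change steadily with distance. Its Spearman rho with order along the heavy strand was −0.62 over 14 rRNAs and mRNAs and −0.40 over the 12 mRNAs alone, genes of the same libraries, as a description.

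Genes that share a messenger had the smallest differences, although their groups did not overlap. The log2 ratio of MT-ATP6 to MT-ATP8 differed by 0.08 and that of MT-ND4 to MT-ND4L by 0.12 between high calcium and control. These reading frames overlap by 46 and 7 bases, so some reads belong to both genes of a pair. The part of shared reads in the small differences was not tested. MT-CO3 over MT-ATP6, neighbours with no tRNA between them and a reading frame overlap of 1 base, differed by 0.31. In TGFb3 against control the differences of the 13 ratios were smaller, 0.50 for MT-RNR2 over MT-RNR1 and −0.46 for MT-ND1 over MT-RNR2.

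**Figure D4:**
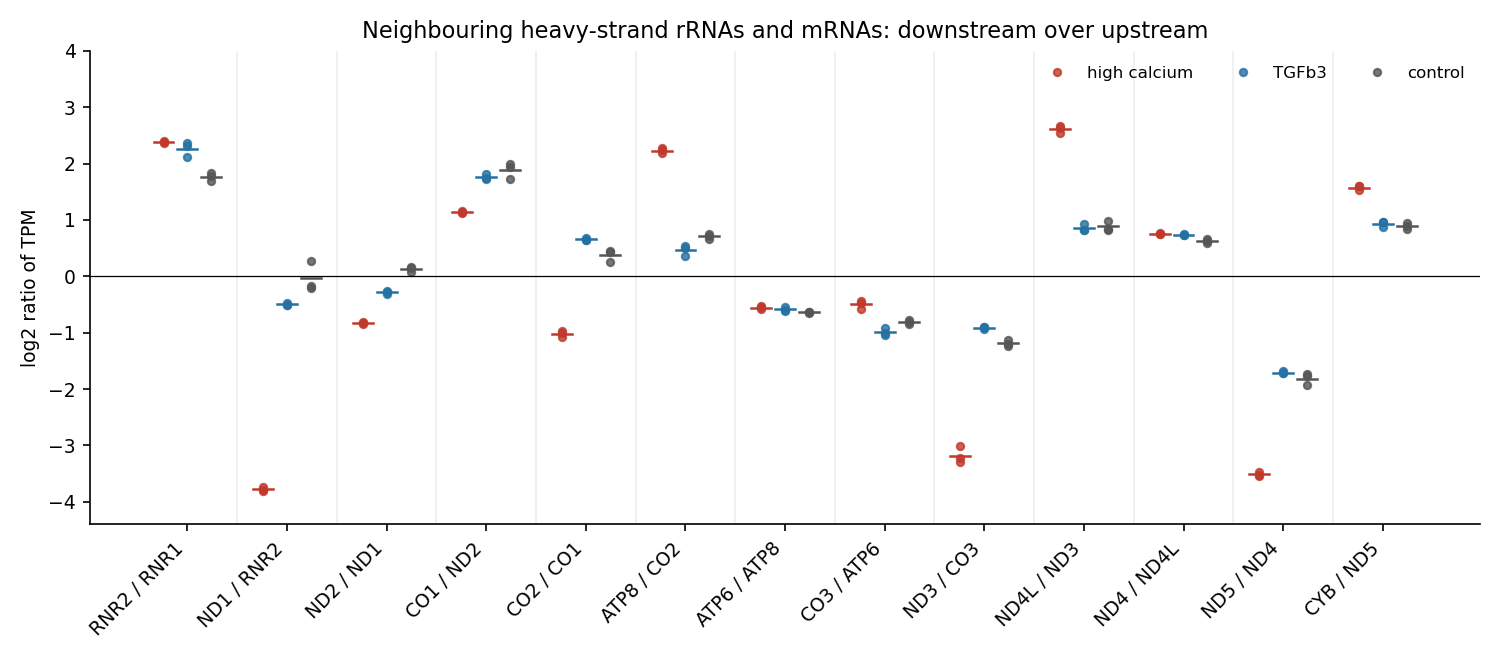
Log2 ratio of TPM of the downstream to the upstream gene for adjacent heavy-strand rRNAs and mRNAs, with a point for each high calcium, TGFb3 and control sample and a line at each mean. High calcium points sit apart from control points in all 13 same-strand pairs, most widely for MT-ND1 over MT-RNR2 with a difference of −3.74.

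Light-strand genes had a lower median difference than heavy-strand genes in high calcium. The log2 ratio of MT-ND6 to the mean of the 12 heavy-strand mRNAs was −3.80, −3.95 and −3.85 in high calcium samples, −2.63, −2.55 and −2.71 in TGFb3 samples and −2.50, −2.40 and −2.74 in control samples. High calcium samples were below all others, with a difference of −1.32 from control (exact permutation test, p = 0.1), and TGFb3 overlapped control with a difference of −0.08 (exact permutation test, p = 0.5). All 9 light-strand genes were called lower in high calcium, with a median log2 difference of −3.56. Of the 28 heavy-strand genes 25 were lower and 3 higher, with a median of −1.96. Among all tested genes 17% were lower and 46.1% higher. The light-strand genes were MT-ND6 and 8 tRNAs, of which MT-TA, MT-TN and MT-TC had values of 0 in high calcium samples. Heavy-strand MT-ND3 and MT-CO2, at −3.66 and −3.59, fell about as far as MT-ND6 at −3.58. MT-ND6 had a high calcium difference close to that of MT-ND5, its neighbour on the other strand: the log2 ratio of MT-ND6 to MT-ND5 differed by −0.08 and overlapped between high calcium and control samples (exact permutation test, p = 0.5). Whether the libraries keep strand is not given in the sources used here, and without it reads of a light-strand gene and of the heavy-strand precursor across it cannot be told apart.

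Of the 22 tRNAs, MT-TV rose and 21 fell in high calcium. Levels spanned 0 to 1743 TPM in high calcium samples, 3.35 to 1443 TPM in TGFb3 samples and 1.64 to 854 TPM in control samples. All are shorter than the 101-base reads, at 59 to 75 bases, so their TPM rest on how the authors' counting treated short genes and on precursors that hold them. The 8 light-strand tRNAs had a median log2 difference of −3.54 and the 14 heavy-strand tRNAs, MT-TV included, of −1.83. The light-strand median rests in part on MT-TA, which was listed at 0 in all high calcium samples and whose difference ran from −6.73 to −1.64 with the pseudocount, so it depends on that choice. MT-TE and MT-TY, light-strand tRNAs for glutamate and tyrosine, are shown for their large falls among the abundant tRNAs (GENCODE release 29, GRCh38, minus strand, anticodon in capitals).
MT-TE: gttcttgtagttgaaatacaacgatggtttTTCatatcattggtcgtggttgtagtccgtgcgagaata
MT-TY: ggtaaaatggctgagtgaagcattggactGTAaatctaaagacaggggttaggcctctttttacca
MT-TE, at chrM:14674-14742 between MT-ND6 and MT-CYB, had 12.4, 13.1 and 7.11 TPM in high calcium samples, 433, 438 and 372 TPM in TGFb3 samples and 357, 351 and 361 TPM in control samples. It was 32.7-fold lower in high calcium, at −4.95 ± 0.174 on the log2 scale (limma adjusted p = 9.0e-09). MT-TY, at chrM:5826-5891, had 49.8, 47.7 and 49.9 TPM in high calcium samples, 884, 989 and 956 TPM in TGFb3 samples and 779.7, 750.3 and 767 TPM in control samples, and was 15.6-fold lower, at −3.93 ± 0.0453 (limma adjusted p = 1.5e-11). For both genes the high calcium samples were far below all others.

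In all, 3 tRNAs were listed at 0 in every high calcium sample, MT-TA and MT-TN on the light strand and MT-TS2 on the heavy strand. MT-TA, for alanine, was listed at 0 in all 3 high calcium samples and had 11.9, 10.1 and 18.1 TPM in TGFb3 samples and 8.15, 12.3 and 11.6 TPM in control samples. MT-TN, for asparagine, was likewise at 0 in high calcium and had 5.42, 3.35 and 5.81 TPM in TGFb3 samples and 1.64, 5.46 and 4.05 TPM in control samples. MT-TS2, for serine, was at 0 in high calcium too, with 8.33, 8.57 and 17.1 TPM in TGFb3 samples and 3.61, 7.86 and 1.87 TPM in control samples. MT-TC, for cysteine, had 0, 2.22 and 2.02 TPM in high calcium samples, 55.1, 57.5 and 66.1 TPM in TGFb3 samples and 54.8, 58.9 and 46.3 TPM in control samples. An exact 0 here can be a failed estimate, so no fold is given for these 4. MT-TP and MT-TQ, for proline and glutamine, fell by 3.56 and 1.24 on the log2 scale, and MT-TS1, for another serine codon family, fell by 2.06, all called by limma.

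Among the heavy-strand tRNAs the high calcium differences were −0.96 for MT-TI, −1.26 for MT-TM, −2.06 for MT-TW, −2.32 for MT-TD and −0.89 for MT-TK. For the next genes along the strand they were −2.11 for MT-TG, −0.61 for MT-TR, −2.63 for MT-TH, −3.97 for MT-TL2 and −3.40 for MT-TT. MT-TH was below 1 TPM in every high calcium sample, so its difference depends on the pseudocount. MT-TL2, the second leucine tRNA, had 0.532, 0.205 and 0.0309 TPM in high calcium samples, 14.9, 35.7 and 25.3 TPM in TGFb3 samples and 22.0, 17.0 and 16.8 TPM in control samples. All high calcium samples were near 0, so no fold is given. MT-TT, for threonine, had 16.4, 10.6 and 13.3 TPM in high calcium samples, 217, 239.8 and 279.8 TPM in TGFb3 samples and 145, 138 and 168 TPM in control samples, and high calcium was 11.2-fold below control. MT-TR, for arginine, had 22.5, 14.5 and 16.8 TPM in high calcium samples, 35.3, 62.2 and 63.7 TPM in TGFb3 samples and 25.5, 23.3 and 35.0 TPM in control samples, with no overlap between high calcium and control but a limma adjusted p of only 0.046. That call was lost without control replicate 1 or 3 and without high calcium replicate 2 or 3, with limma adjusted p between 0.011 and 0.16 over all alternatives.

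**Figure D5:**
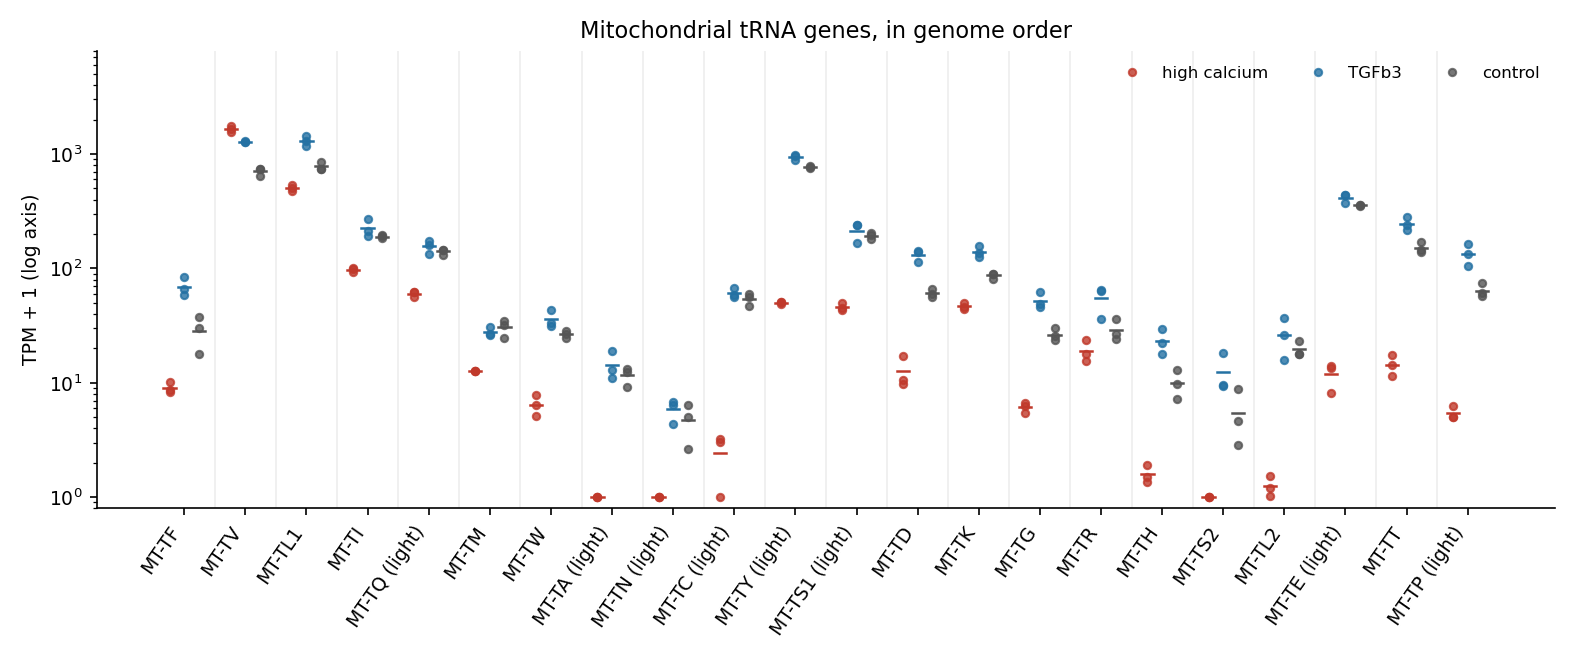
TPM + 1 of the 22 tRNAs on a log axis, in genome order with light-strand genes marked, with a point for each high calcium, TGFb3 and control sample and a line at each mean. High calcium points lie below control points for every tRNA but MT-TV, and lie at 0 TPM for MT-TA, MT-TN and MT-TS2.

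In TGFb3 against control the tRNAs carried most of the rises. Of the 22 tRNAs 13 were called higher, where 26.5% of all tested genes were. The 13 were MT-TF, MT-TV, MT-TL1, MT-TW, MT-TY, MT-TD, MT-TK, MT-TG, MT-TR, MT-TH, MT-TS2, MT-TT and MT-TP. Of these 13, 11 are heavy-strand genes, as are 14 of all 22 tRNAs. Heavy-strand tRNAs had a median log2 difference of 0.80 and light-strand tRNAs 0.25. MT-TF, in front of MT-RNR1, rose, with 57.1, 65.0 and 82.6 TPM in TGFb3 samples and 29.4, 36.7 and 16.8 TPM in control samples, a log2 difference of 1.32 ± 0.239 (limma adjusted p = 0.00083). MT-TH, for histidine, was lowest in high calcium and highest in TGFb3, with log2 differences from control of −2.63 and 1.22. Its high calcium samples had only 0.509, 0.346 and 0.922 TPM, below the pseudocount of 1. The high calcium difference of MT-TH ran from −3.75 to −1.31 over the alternatives. MT-TP rose by 1.06 in TGFb3, the only light-strand tRNA besides MT-TY to be called. For the 9 not called, log2 differences ran from −0.12 to 0.38. MT-TW was called at a limma adjusted p of 0.04, which ranged from 0.015 to 0.15 over the alternatives; its call was lost without any of control replicates 1, 2 and 3, TGFb3 replicates 2 and 3 or high calcium replicate 2. MT-TS2 was not called without control replicate 3 or TGFb3 replicate 3, and its limma adjusted p ranged from 0.0015 to 0.06.

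Set directly against TGFb3, high calcium had 34 of the 37 genes lower, where 16.2% of all tested genes were, and 3 higher, where 50.4% were. The samples of these groups did not overlap for any of the 37, against 71.2% of all tested genes without overlap. This comparison shares its high calcium samples with the first and its TGFb3 samples with the second, and the limits of the tRNA values apply to it as well. The same rRNAs and MT-TV were higher, by 2.31 ± 0.0820 for MT-RNR1, 2.44 ± 0.0680 for MT-RNR2 and 0.37 ± 0.0599 for MT-TV on the log2 scale (limma adjusted p = 8.5e-09, 1.7e-09 and 0.00035). The MT-TV difference was 0.08 after median ratio rescaling and not called. Among the mRNAs the differences ran from −3.68 for MT-ND5 to −0.84 for MT-ND1. MT-ND1 and MT-CYB, which rose in TGFb3, were 1.80-fold and 8.28-fold lower in high calcium than in TGFb3.

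Copies of mitochondrial genes also lie in the nuclear genome, and reads of near-identical copies may be split between copy and original. The table held 405 such symbols, of which 14 were tested. In high calcium against control 12 were lower, where 17% of all tested genes were, and 2 higher, where 46.1% were. The 2 higher were MTRNR2L12 and MTRNR2L8, copies of the large-subunit rRNA named after their values were seen, at 3.16 ± 0.0651 and 2.65 ± 0.154 on the log2 scale. All copies together summed to 1862, 1811 and 1934 TPM in high calcium samples, 6127, 6666 and 6534 TPM in TGFb3 samples and 7272, 6811 and 7347 TPM in control samples. Most of it was MTATP6P1, which had 1677, 1623 and 1734 TPM in high calcium samples, 5704, 6265 and 6119 TPM in TGFb3 samples and 6837, 6411 and 6921 TPM in control samples. It was 4.01-fold lower in high calcium, close to the 3.96-fold of MT-ATP6. How the authors counted reads that match both is not given in the sources used here.

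Nuclear genes for the machinery of mitochondrial RNA were examined in 5 lists of 70 genes, 69 of them tested. In high calcium 17 were higher, 32 lower and 20 not called, while in TGFb3 there were 3 higher, 53 lower and 13 not called. Of all tested genes 46.1% were higher and 17% lower in high calcium, and 26.5% were higher and 33.1% lower in TGFb3. Of 10 transcription genes, 1 rose and 8 fell in high calcium, and 9 fell in TGFb3. TFAM, which packages mitochondrial DNA and starts transcription, had 33.3, 33.2 and 33.7 TPM in high calcium samples, 34.0, 35.3 and 38.1 TPM in TGFb3 samples and 69.6, 73.6 and 68.6 TPM in control samples, and both treatments were well below control. Its log2 difference was −1.06 ± 0.0519 in high calcium and −0.96 ± 0.0519 in TGFb3 (limma adjusted p = 8.9e-08 and 1.8e-07). POLRMT had 12.6, 11.3 and 11.7 TPM in high calcium samples, 7.81, 7.09 and 7.24 TPM in TGFb3 samples and 9.40, 9.83 and 10.0 TPM in control samples, with log2 differences of 0.26 ± 0.0762 in high calcium and −0.36 ± 0.0762 in TGFb3 (limma adjusted p = 0.014 and 0.0023). Its high calcium call was lost without high calcium replicate 1, and the difference was 0.04 after median ratio rescaling, 0.08 on the nuclear total and −0.04 after quantile normalisation. TFB2M, the other initiation factor, differed by −0.35 in high calcium and −0.86 in TGFb3, both called. TEFM, an elongation factor, differed by −0.35 in high calcium (called) and −0.28 in TGFb3 (not called). MTERF4, which guides rRNA methylation, and MTERF1, a factor that binds downstream of the rRNA genes, fell in high calcium by 0.99 and 0.41 on the log2 scale. High calcium calls were lost for MTERF1 without control replicate 1 or 2 or high calcium replicate 2, and for TEFM without control replicate 2 or high calcium replicate 1 or 2.

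Of 24 genes for RNA processing, 3 rose and 12 fell in high calcium, and 18 fell in TGFb3. Among all tested genes 46.1% rose and 17% fell in high calcium, and 33.1% fell in TGFb3. TRMT10C and PRORP are parts of the RNase P that cuts tRNA 5′ ends. TRMT10C differed by −0.76 in high calcium and −0.74 in TGFb3, and both were called. PRORP, listed under its older symbol KIAA0391, had 52.8, 25.1 and 16.4 TPM in high calcium samples and 59.5, 53.5 and 49.2 TPM in control samples, which overlapped. Its log2 difference was −0.92 ± 0.340 (limma adjusted p = 0.038, 0.00066 to 0.13 over the alternatives), and the call was lost on leaving out any of control replicates 1, 2 and 3, high calcium replicates 2 and 3 or TGFb3 replicate 3. FASTKD5, needed for messengers that lack flanking tRNAs, differed by −0.64 in high calcium and −0.31 in TGFb3. FASTK, which has a form that stabilises MT-ND6, rose by 0.69 in high calcium. GRSF1, an RNA granule protein, was not called in high calcium at −0.08 (called at −0.32 after median ratio rescaling) and fell by 0.38 in TGFb3.

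Of 8 genes for RNA stability and decay, 2 rose and 5 fell in high calcium, and 7 fell in TGFb3. The shares over all tested genes were 46.1% higher and 17% lower in high calcium, and 33.1% lower in TGFb3. LRPPRC, which with SLIRP keeps mitochondrial mRNAs stable, had 143, 142 and 144 TPM in high calcium samples, 74.0, 77.0 and 81.5 TPM in TGFb3 samples and 146, 143 and 146 TPM in control samples. Its level overlapped between high calcium and control, with a log2 difference of −0.02 ± 0.0409 (limma adjusted p = 0.66), though median ratio rescaling, quantile normalisation and the nuclear total called it lower at −0.26, −0.17 and −0.22, and it was lower in TGFb3 at −0.90 ± 0.0409 (limma adjusted p = 6.3e-08). SLIRP was lower in both, at −0.78 in high calcium and −0.86 in TGFb3. PNPT1 and SUPV3L1, the exonuclease and helicase of the mitochondrial degradosome, differed by −0.42 in high calcium and −1.04 in TGFb3 for PNPT1 and by −0.14 in high calcium and −0.84 in TGFb3 for SUPV3L1. PDE12, which removes poly(A) tails, fell by 0.33 in high calcium and ENDOG, a nuclease, rose by 0.52. The ENDOG call was lost under all 3 rescalings, at 0.17 to 0.35, and without control replicate 2; that of SUPV3L1 was lost without control replicate 1 or 2 or high calcium replicate 1.

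Of 17 genes for DNA replication and its nucleotides, 7 rose and 5 fell in high calcium, against 2 and 12 in TGFb3. The high calcium rises are near the 46.1% of all tested genes. TWNK, the replicative helicase, and DNA2, a helicase and nuclease, fell by 0.80 and 1.53 in high calcium, and RRM2B and TK2, which supply deoxynucleotides outside S phase, rose by 0.74 and 0.71. Of 10 tested regulators of mitochondrial biogenesis, 4 rose and 2 fell in high calcium, against 1 and 7 in TGFb3. The high calcium counts are near the 46.1% and 17% of all tested genes, and in TGFb3 26.5% were higher and 33.1% lower. The largest difference was a rise of 0.77 for PPARGC1A, named after its values were seen. It averaged only 2.15 TPM in high calcium and 0.861 TPM in control samples. PPARGC1B, a coactivator, fell by 0.42 and its partner ESRRA differed by 0.35 in high calcium, where its samples overlapped with control. The ESRRA call was lost under all 3 rescalings, at 0.12 to 0.17, and without control replicate 1 or 2 or high calcium replicate 2 or 3. SP1 and YY1, general transcription factors, differed by 0.20 and −0.14, and SP1 turned to −0.03 after median ratio rescaling. The YY1 call was lost without control replicate 2 or high calcium replicate 3. The count of rises over the 5 lists changed with the scale: after median ratio rescaling, 7 of the 69 factors were higher and 45 lower in high calcium.

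Nuclear-encoded partners of the same complexes did not follow the mitochondrial mRNAs in size. Of 63 tested nuclear subunits of the respiratory chain and ATP synthase, 16 were higher, 13 lower and 34 not called in high calcium, with a median log2 difference of 0.03 and a range of −0.44 to 0.58. Of all tested genes 46.1% were higher and 17% lower, with a median of 0.22. Of 78 mitochondrial ribosomal protein genes, 8 were higher, 34 lower and 36 not called in high calcium, with a median of −0.15. In TGFb3 the nuclear subunits had 1 higher and 37 lower, and 72 of the ribosomal protein genes were lower. The TGFb3 shares over all tested genes were 26.5% higher and 33.1% lower. The mitochondrial mRNAs ranged from −3.66 to −0.50 in high calcium. MT-ND1, at −0.50 ± 0.0734 (SE), was only just below the lowest nuclear subunit at −0.44, and the next mRNA, MT-ND2, was at −1.45. Over the alternatives MT-ND1 reached −0.29, and the nuclear subunits were not compared there. The difference between the lists was not tested.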

How the data were processed

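RNA of 9 MCF10A samples was sequenced with paired reads of 101 bases, per the labels' protocols. The authors deposited 1 table of TPM values per gene, aligned with HISAT2 to hg38 per the submitters' processing notes. Not given in the sources used here are the quantification tool, RNA selection and strand setting; TPM keep no depth, so no counting interval is given. Rows that shared a symbol were summed, which turned 58288 rows into 56609 symbols. Coordinates and sequences came from GENCODE release 29 (GRCh38), which held all 37 mitochondrial genes. The groups were those of the labels, and no sample was left out.

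Each gene was tested with limma 3.58.1 in R 4.3.3 on log2(TPM + 1), with a trended variance, all 9 samples in 3 groups, 13968 symbols that averaged 1 TPM or more, and Benjamini-Hochberg adjustment over all of them, two-sided, at 0.05. The procedure was tested on simulated data. Standard errors are those of the moderated fit, and folds are ratios of mean TPM, while log2 differences on the log2(TPM + 1) scale understate the change of low genes. Single values per sample (shares, ratios) were compared with exact permutation tests in scipy 1.17.1, for which 3 samples against 3 cannot go below 0.1. Every mitochondrial gene was named. Of the factor lists, up to 4 called genes per list with the largest high calcium difference and a mean of at least 5 TPM were named. Besides these, 11 were named whatever their values, and PPARGC1A was added after its values were seen. The genes, lists and comparisons were chosen with earlier results of these data known. The labels do not say that replicate numbers mark a shared culture or day. Alternatives covered pseudocount, filter, scaling, variance model, samples in the fit, a replicate block and leaving out each sample.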

Additional observations from a re-analysis of the deposited data

How the results depend on the processing

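Across the alternatives, the high calcium counts of mitochondrial genes, the lower mitochondrial share, the higher rRNA to mRNA ratio and the lower MT-ND6 ratio kept their direction. Leaving out 1 sample at a time gave 33 to 34 genes lower and 3 higher in high calcium against control. For TGFb3 against control it gave 2 to 3 lower and 16 to 22 higher. Leaving out TGFb3 replicate 1 added MT-TI, MT-TL2, MT-TQ and MT-TS1 to the called genes. With no filter on low values limma called 0 mitochondrial genes lower in TGFb3 (1 at an unadjusted p under 0.05, over 26932 symbols), and 1 after median ratio rescaling, against 2. The TGFb3 difference in mitochondrial share was 0.0141 percentage points and changed sign to −0.0560 with nuclear copies added, −0.0437 over protein-coding and mitochondrial RNA only and −0.169 with tRNAs left out, and leaving out 1 sample gave −0.512 to 0.310. Factors higher in high calcium numbered 7 instead of 17 after median ratio rescaling, after quantile normalisation and on the nuclear total. Against TGFb3, factors lower in high calcium numbered 15, 13 and 10 under those scalings instead of 5, and 30 were higher under the first 2 instead of 46. POLRMT in high calcium turned to −0.0412 and MT-ND5 in TGFb3 to −0.0890 after quantile normalisation, and SP1 in high calcium to −0.0336 after median ratio rescaling. The cause was not tested.

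Same-numbered samples of different groups did not deviate together (correlation −0.0747 to −0.00372 over 9 pairs), and in 0 of 18 cases did a sample match best the sample of its own number, so the numbers were not taken as pairs. With the replicate block, 33 mitochondrial genes were lower and 3 higher in high calcium against control, where MT-TR lost its call. In TGFb3 against control 2 were lower and 17 higher, where MT-TW lost its call. TPM give no depth, so low tRNAs such as MT-TN and MT-TL2 have an unknown counting error.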
